A study of Homo sapiens with 6 samples.

Results

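Asparagine synthetase, the proline-forming reductase PYCR1, the cytosolic and mitochondrial transaminases GOT1 and GPT2, and both transsulfuration enzymes CBS and CTH had lower messenger RNA levels in high than in normal glucose, while ALDH18A1, the enzyme that opens proline synthesis, had a higher one. CTH showed the largest of these changes, at 16.9-fold. The argininosuccinate synthetase gene ASS1 had few counts in every library. These 8 genes were chosen by name, as enzymes of asparagine, proline and transsulfuration metabolism with neighbouring transaminases and ASS1. Earlier results of these data were known when they were chosen. Each matched exactly 1 locus with an annotated transcript among the 60835 loci of the table. All 8 passed the filter on low counts, with 25025 loci tested in all; ASS1 passed through its normal glucose libraries alone.

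ARPE-19, an established human retinal pigment epithelium line of wild-type genotype, was kept for 72 h in medium with normal glucose (3 libraries) or high glucose (3 libraries), and no other agent or allele is named for either group. The labels give no glucose concentration. They do not say whether a group's libraries stem from different cultures, so every p-value here is set against a library-to-library spread that could be technical alone. Poly(A) RNA was sequenced as read pairs, and the libraries held 81616741 to 87748820 counts each. In such bulk libraries, fewer cells that express a gene and less of its RNA per cell cannot be told apart.

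Asparagine is made from aspartate by ASNS, with glutamine as the nitrogen donor, and aspartate is made by the transaminases of the GOT family. Proline is built from glutamate: ALDH18A1 forms a semialdehyde that cyclises to pyrroline-5-carboxylate, which the PYCR reductases turn into proline. Transsulfuration carries the sulfur of homocysteine to cysteine in a pair of steps, CBS joining homocysteine to serine and CTH releasing cysteine. Several of these genes are known targets of ATF4, the transcription factor that is translated when amino acids are short or the endoplasmic reticulum is stressed. In the retinal pigment epithelium, proline is also known as a fuel, and cysteine feeds the synthesis of glutathione.

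ATF4 binds, with a C/EBP partner, a composite element whose core can be written TGATGNAA, and the ASNS promoter is the classic example, with a further element, GTTACA, just downstream. The bases upstream of the annotated start are shown for ASNS and GOT1, the members found to hold the TGATGNAA core, and for CTH, the gene with the largest change. Sequences are from RefSeq (build GRCh38.p14), written 5′ to 3′ on the strand of the gene, and capitals mark a match to either motif on either strand. The ASNS stretch is chr7:97872409-97872658 (minus strand), that of GOT1 is chr10:99430625-99430874 (minus strand), and that of CTH is chr1:70411018-70411267 (plus strand).
ASNS: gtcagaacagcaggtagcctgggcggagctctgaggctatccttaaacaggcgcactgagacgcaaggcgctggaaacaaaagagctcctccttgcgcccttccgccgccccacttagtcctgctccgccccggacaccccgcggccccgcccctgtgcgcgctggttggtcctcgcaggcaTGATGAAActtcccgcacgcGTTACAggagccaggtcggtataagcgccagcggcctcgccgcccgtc
GOT1: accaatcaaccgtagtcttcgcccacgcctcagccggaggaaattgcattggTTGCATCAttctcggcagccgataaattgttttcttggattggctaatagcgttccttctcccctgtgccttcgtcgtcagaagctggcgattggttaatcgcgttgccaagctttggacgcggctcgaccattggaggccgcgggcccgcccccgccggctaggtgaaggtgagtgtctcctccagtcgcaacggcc
CTH: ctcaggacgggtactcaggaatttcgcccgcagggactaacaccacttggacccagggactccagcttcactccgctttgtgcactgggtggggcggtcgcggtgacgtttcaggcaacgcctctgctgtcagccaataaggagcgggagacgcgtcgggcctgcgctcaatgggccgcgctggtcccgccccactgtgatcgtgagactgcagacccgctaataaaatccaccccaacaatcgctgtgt

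In ASNS the core lies 68 to 61 bases before the start and GTTACA 48 to 43 bases before it. In GOT1 the core reads TTGCATCA, its reverse complement, 198 to 191 bases before the start. Among the 6 members with a promoter entry, ALDH18A1, CTH and CBS held neither motif in the 250 bases searched, and ASS1 held GTTACA 86 to 81 bases before the start. PYCR1 and GPT2 have no entry. Of 35116 promoter windows of that length, 3.14% held TGATGNAA and 5.59% held GTTACA, counting both strands. Counted by gene, as the members are, 3.89% and 6.8% of 27305 genes had at least 1 window with the motif; ASNS and ASS1 each have 2 windows, of which 1 held a match, and CBS has 3. A match describes letters and is no measurement of binding.

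Of the 8 members, 6 fell and 1 rose from normal to high glucose at an edgeR adjusted p under 0.05, the threshold for a call throughout. Over all tested loci, 9.86% were called lower and 9.75% higher. The 8 were chosen with earlier results of these data known, so setting them beside all loci is a description only. The median log2 change (high minus normal glucose) of the 8 was -1.61, and -1.38 without ASS1, beside 0.00 for all tested loci. The level ranges of the groups, as TMM-scaled CPM (counts scaled to a common library size), did not overlap for any member: 7 were lower and 1 was higher in every high glucose library, against 20.5% and 21.8% of all loci. ASS1 is among these 7, although it passed the filter only through its normal glucose libraries and so had to be lower in the others. Normal glucose 3 was the lowest normal glucose library for 7 of the 8, and for ALDH18A1, the gene that went the other way, the highest. For CBS (57.3 against 62.1 CPM in normal glucose 1) and ASS1 (16 against 19 counts in normal glucose 2) the gap was small. How often this library is the lowest over all tested loci was not computed.

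**Figure D1:**
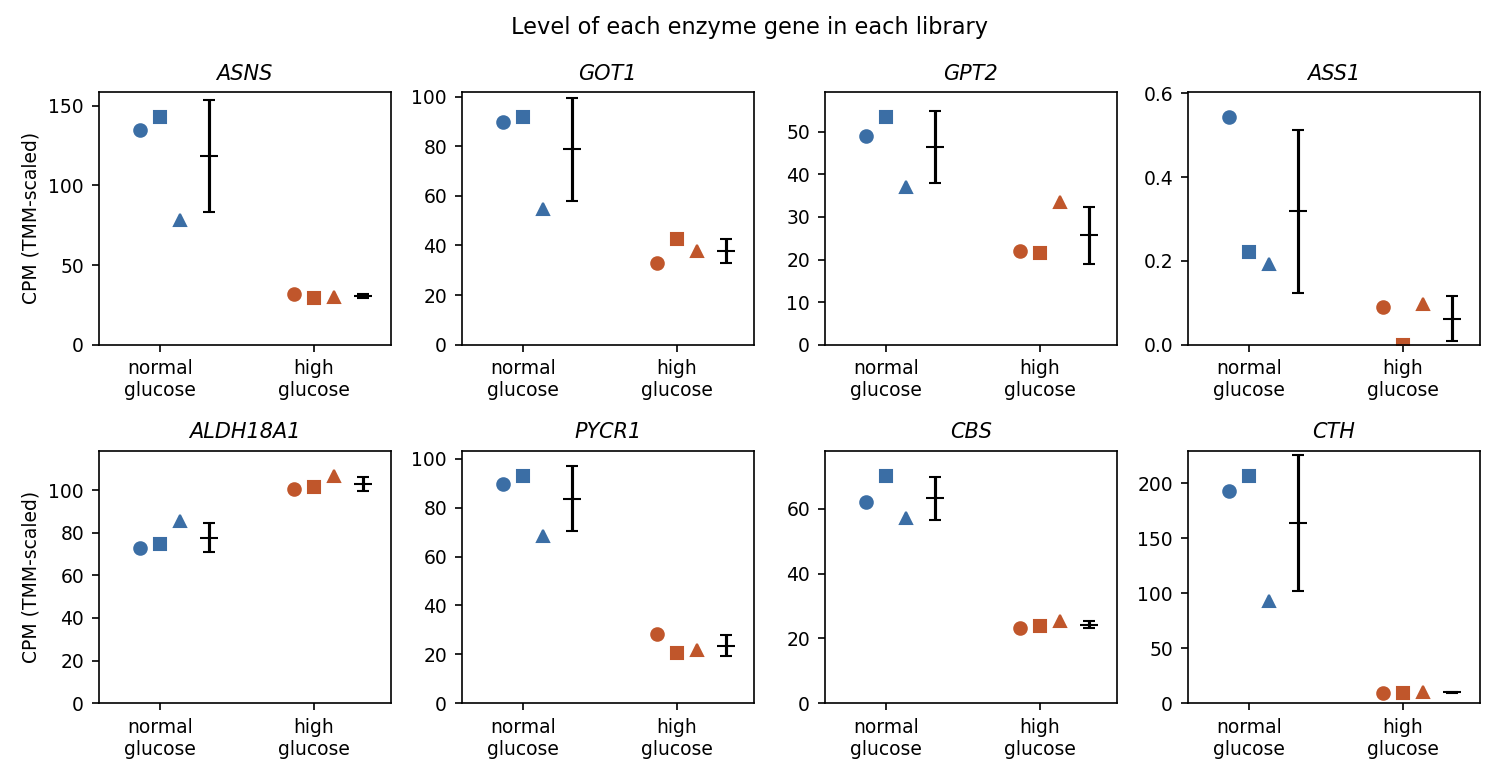
TMM-scaled CPM (vertical axes, starting at 0) of the 8 enzyme genes in the 3 normal glucose (blue) and 3 high glucose (orange) libraries; circle, square and triangle are replicates 1, 2 and 3, and the black mark is the mean ± SD. The groups do not overlap in any panel, and the normal glucose triangle lies nearest to the high glucose points for the genes that fell.

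ASNS, which makes asparagine, was at 134.8, 142.9 and 78.2 CPM in normal glucose 1, 2 and 3 and at 31.6, 29.2 and 30.2 CPM in high glucose 1, 2 and 3. The high glucose libraries lay close together, and the spread was in normal glucose, where library 3 held 56.3% of the mean of the other two. The mean fell from 119 ± 35.3 to 30.4 ± 1.23 CPM (SD, n = 3), a log2 change of -1.97 (SE 0.228; edgeR adjusted p = 0.00365), or 3.91-fold. The locus (chr7:97851677-97972689, minus strand) also holds a microRNA, olfactory receptor pseudogenes and clone transcripts, so some of its counts may not be of ASNS.

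GOT1, the cytosolic aspartate transaminase, was at 89.6, 91.6 and 54.8 CPM in normal glucose and at 32.9, 42.4 and 37.7 CPM in high glucose. It fell by 1.06 on the log2 scale (SE 0.215; edgeR adjusted p = 0.0175), from 78.7 ± 20.7 to 37.7 ± 4.73 CPM (SD, n = 3). Its locus is chr10:99396870-99430907 (minus strand) and holds no other gene name. The call was lost when any 1 library other than normal glucose 3 was left out (adjusted p of 0.0547 to 0.0746, log2 changes of -0.94 to -1.15). Without normal glucose 3 GOT1 fell by 1.26.

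GPT2, the mitochondrial alanine transaminase (chr16:46884362-46931289, plus strand), was at 49.0, 53.4 and 37.0 CPM in normal glucose and at 22.1, 21.5 and 33.4 CPM in high glucose. High glucose 3 came within a few CPM of normal glucose 3, which makes this the narrowest gap among the genes that fell. The mean went from 46.5 ± 8.48 to 25.7 ± 6.70 CPM (SD, n = 3), with a log2 change of -0.86 (SE 0.22; edgeR adjusted p = 0.0363). Its call was lost without normal glucose 1 or 2 or high glucose 1 or 2 (adjusted p of 0.0992 to 0.129), and with the replicate number as a block (adjusted p = 0.0912). Without high glucose 3 it fell by 1.09.

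ALDH18A1 (chr10:95605941-95656711, minus strand), the bifunctional first enzyme of proline synthesis, was at 73.0, 74.7 and 85.4 CPM in normal glucose and at 100.7, 101.6 and 106.7 CPM in high glucose. It was the only member above its normal glucose range in every high glucose library. The rise was small, from 77.7 ± 6.71 to 103 ± 3.25 CPM (SD, n = 3), a log2 change of 0.41 (SE 0.105; edgeR adjusted p = 0.0364). It was called in 1 of the 6 fits that left out a library, that without normal glucose 3 (adjusted p = 0.00667), and its adjusted p was 0.0955 to 0.133 in the others, 0.089 with the replicate block and 0.0611 without a filter on low counts.

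PYCR1, the mitochondrial reductase of the last step to proline, moved the opposite way. It was at 89.5, 93.1 and 68.5 CPM in normal glucose and at 28.3, 20.5 and 21.8 CPM in high glucose. The groups lay far apart, with high glucose 1 the highest of its group. The mean fell from 83.7 ± 13.3 to 23.5 ± 4.19 CPM (SD, n = 3), by 1.83 on the log2 scale (SE 0.18; edgeR adjusted p = 0.00272), or 3.56-fold. The locus (chr17:81932384-81947233, minus strand) also holds MYADML2.

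PYCR3, the cytosolic reductase of the family, was at 6.65, 5.49 and 9.09 CPM in normal glucose and at 14.2, 15.9 and 16.0 CPM in high glucose. All high glucose libraries lay above the normal glucose range. PYCR3 rose by 1.12 (SE 0.21; edgeR adjusted p = 0.0141), a call that was lost without any 1 high glucose library (adjusted p of 0.0507 to 0.0633).

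CBS, the first transsulfuration enzyme (chr21:43053191-43076362, minus strand), was at 62.1, 70.2 and 57.3 CPM in normal glucose and at 23.3, 23.9 and 25.5 CPM in high glucose. It varied least within normal glucose of the genes that fell. The mean fell from 63.2 ± 6.53 to 24.2 ± 1.10 CPM (SD, n = 3), by 1.38 on the log2 scale (SE 0.12; edgeR adjusted p = 0.00216), or 2.61-fold. A near-identical copy, CBSL, has its own locus, and reads of the pair may have been split between them. CBSL was at 79.1, 42.0 and 55.2 CPM in normal glucose and at 20.9, 12.8 and 14.1 CPM in high glucose. With the counts of both summed, a setting chosen after the values were seen, the level fell from 122 ± 16.7 to 40.2 ± 3.77 CPM (SD, n = 3), by 1.60 (SE 0.138; edgeR adjusted p = 0.0021).

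CTH, the cystathionine lyase that releases cysteine, was at 192.4, 206.6 and 93.3 CPM in normal glucose and at 9.44, 9.63 and 10.1 CPM in high glucose. Even the lowest normal glucose library stood far above the high glucose libraries, which differed from each other by less than 1 CPM. The mean fell from 164 ± 61.8 to 9.71 ± 0.315 CPM (SD, n = 3), a log2 change of -4.08 (SE 0.314; edgeR adjusted p = 0.00162). Left-out libraries gave -3.88 to -4.36. CTH ranked 46 of 25025 loci by p-value. Its locus (chr1:70411218-70445536, plus strand) also holds a clone transcript, AL354872.

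ASS1, which joins citrulline and aspartate on the way to arginine, had counts of 47, 19 and 16 in normal glucose and of 8, 0 and 8 in high glucose (chr9:130444961-130501274, plus strand). These are 0.543, 0.221 and 0.192 CPM against 0.0897, 0 and 0.0971 CPM. The table's counts favour multiples of 4 (9555 values of 4 against 4210 of 3 and 2659 of 5), so a count of 4 may be 1 fragment. A floor of 3 such fragments, or 12 counts, per library was taken, and every high glucose library lay under it. Read in fragments, ASS1 had 21 in normal and 4 in high glucose, a ratio of 0.188 with an exact 95% interval of 0.0468 to 0.556, which covers counting error only. The difference was not called (edgeR adjusted p = 0.171; 0.106 to 0.434 over the alternatives). Since the normal glucose libraries alone brought ASS1 past the filter, the ratio is a description and supports no difference. ASS1 has many processed pseudogenes, so its few counts are uncertain.

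**Figure D2:**
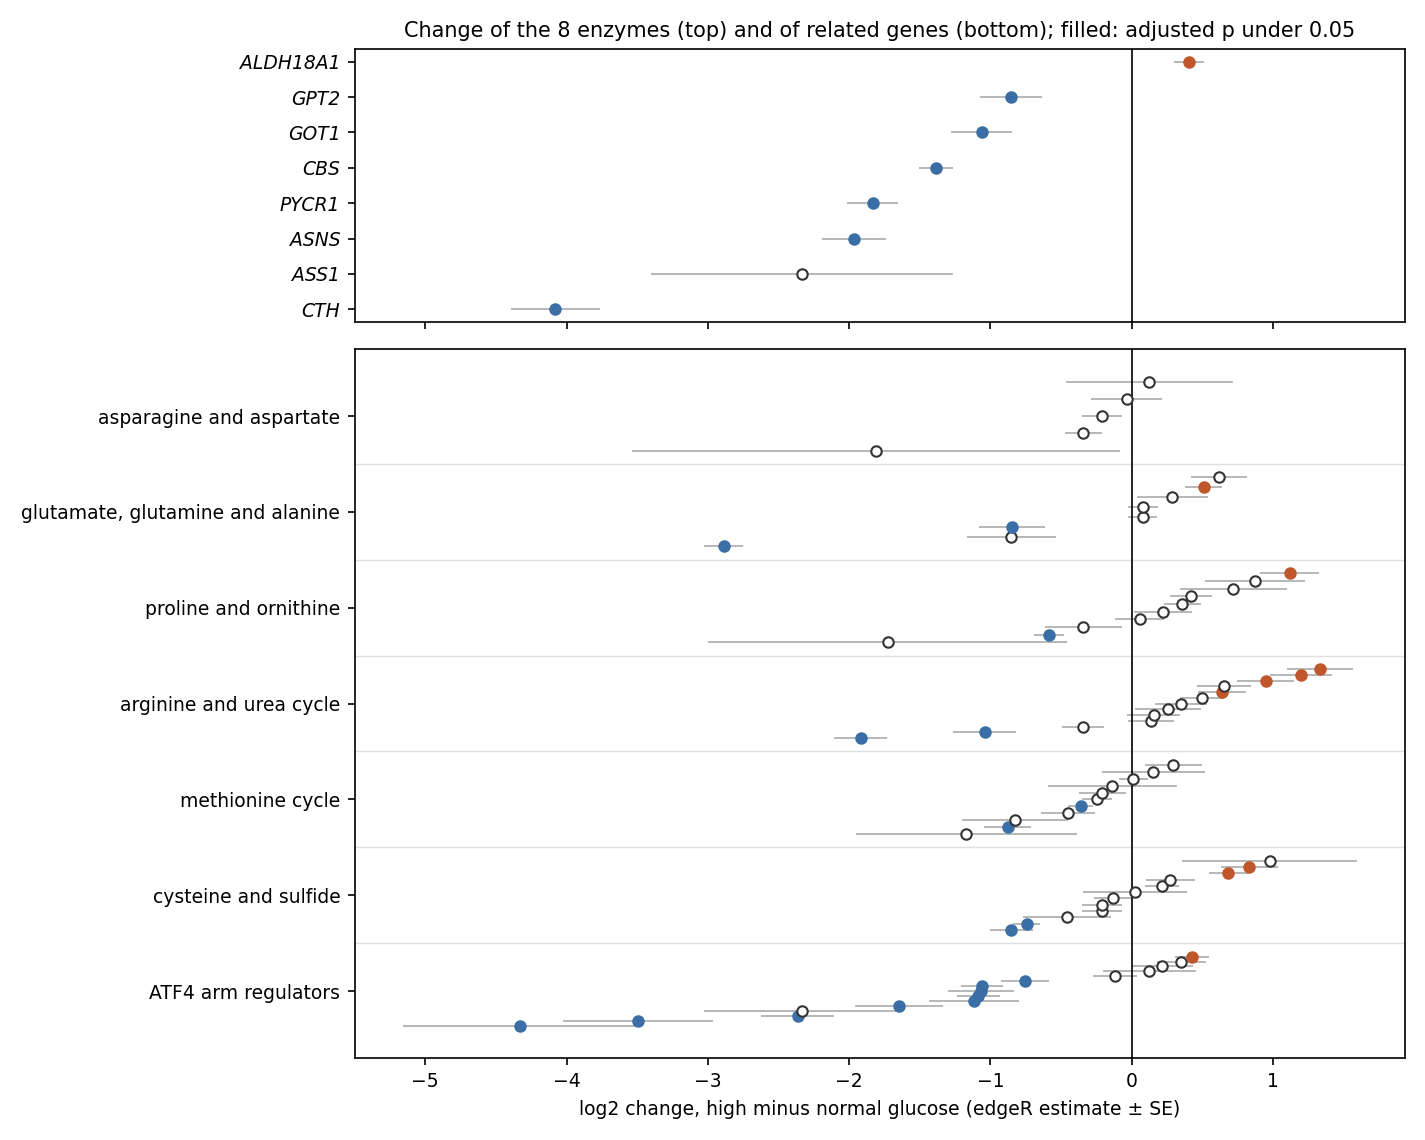
Log2 change from normal to high glucose (horizontal axis; edgeR estimate with SE bars) for the 8 enzymes, named in the upper panel, and for the tested genes of 7 related lists in the lower panel; filled points passed an adjusted p of 0.05, blue lower and orange higher. CTH lies furthest left of the 8, at -4.08, and ALDH18A1 alone lies right of 0, at 0.41.

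Levels can be set side by side between genes only per length. The authors' deposited FPKM values, scaled to library size and to a length that is not given, are therefore used here. In normal glucose the order was GOT1 (23.6 ± 6.29), ALDH18A1 (16.5 ± 1.36), CTH (16.1 ± 6.11), PYCR1 (13.6 ± 2.21), CBS (7.46 ± 0.80), ASNS (7.06 ± 2.13), GPT2 (5.82 ± 1.08) and ASS1 (0.0802 ± 0.0508 FPKM; SD, n = 3). Neighbours in this order overlapped in their library ranges, except at the steps from PYCR1 to CBS and from GPT2 to ASS1. In high glucose ALDH18A1 came first (22.6 ± 0.607 FPKM) and GOT1 next (11.6 ± 1.38 FPKM). PYCR1 (3.93 ± 0.735), GPT2 (3.30 ± 0.846) and CBS (2.94 ± 0.117 FPKM) followed, with overlap between neighbours. ASNS (1.85 ± 0.09 FPKM) and CTH (0.976 ± 0.0251 FPKM) came after them, each apart from its neighbours, and ASS1 was last (0 to 0.0247 FPKM, with the placeholder 0.0001 read as 0). CTH thus moved from rank 3 to rank 7. The place of CBS depends on CBSL: summed, the pair had 19.2 ± 3.49 FPKM in normal and 6.22 ± 0.866 FPKM in high glucose (SD, n = 3), which would put it at rank 2 and rank 3 and move CTH to rank 4 in normal glucose. The table gives no lengths, and a locus that holds several genes may be divided by more than the length of the enzyme's own transcript, which bears most on ASNS. Lengths implied by counts and FPKM were 3.30 kb for GOT1, 3.98 for ASS1, 4.62 for ALDH18A1 and 6.07 for PYCR1. They were 7.88 kb for GPT2, 8.36 for CBS, 10.1 for CTH and 16.6 for ASNS. The order between genes depends on these lengths, also at loci with 1 gene name. In normal glucose CBSL had 11.8 FPKM at 58.8 CPM, and CBS had 7.46 FPKM at 63.2 CPM. These near-identical genes were thus divided by unlike lengths, and the ranks of their sum depend on that.

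To test whether a member changed differently from a partner enzyme, the log2 ratio of their CPM was taken in each library and compared between groups with an exact 2-sided permutation test. 7 ratios could be tested. With 3 libraries against 3 the smallest p this test allows is 0.1, which is 0.14 after Benjamini-Hochberg adjustment over the 7, so no ratio could pass 0.05. Of the 6 ratios described here, the groups did not overlap for 4, which all reached that smallest value (exact p = 0.1, adjusted p = 0.14). CTH to CBS differed most between the groups, from a mean of 1.30 ± 0.516 to -1.32 ± 0.0184 (SD, n = 3). CPM are not scaled to length, so only the difference between the groups, not the sign of a ratio, compares the enzymes. With CBS and CBSL summed, the ratio of CTH was 0.45, 0.88 and -0.27 in normal glucose and -2.23, -1.93 and -1.98 in high glucose, a difference of -2.40.

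The other 3 ratios whose groups lay apart showed smaller differences. ASNS to ASRGL1, an asparaginase that cleaves what ASNS makes, differed by -1.89 between groups, and ASRGL1 itself was at 3.72 and 3.63 CPM on average (log2 change -0.04, edgeR adjusted p of 0.938), a sign that depends on the scaling. GPT2 to GLUD1, the glutamate dehydrogenase, differed by -0.95, and CBS to AHCY, the enzyme that supplies homocysteine, by -1.02. For GOT1 to GOT2, its mitochondrial counterpart, the groups overlapped, as normal glucose 3 (-2.17) lay among the high glucose libraries (-2.45, -2.06 and -2.16); the difference was -0.84 (exact permutation p = 0.3), and -1.22 without that library. ALDH18A1 to ALDH4A1, which runs the opposing step of proline breakdown, differed by -0.37 (exact permutation p = 0.5) with wide spread in both groups. ASS1 to ASL was not tested, as ASS1 had no count in high glucose 2.

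**Figure D3:**
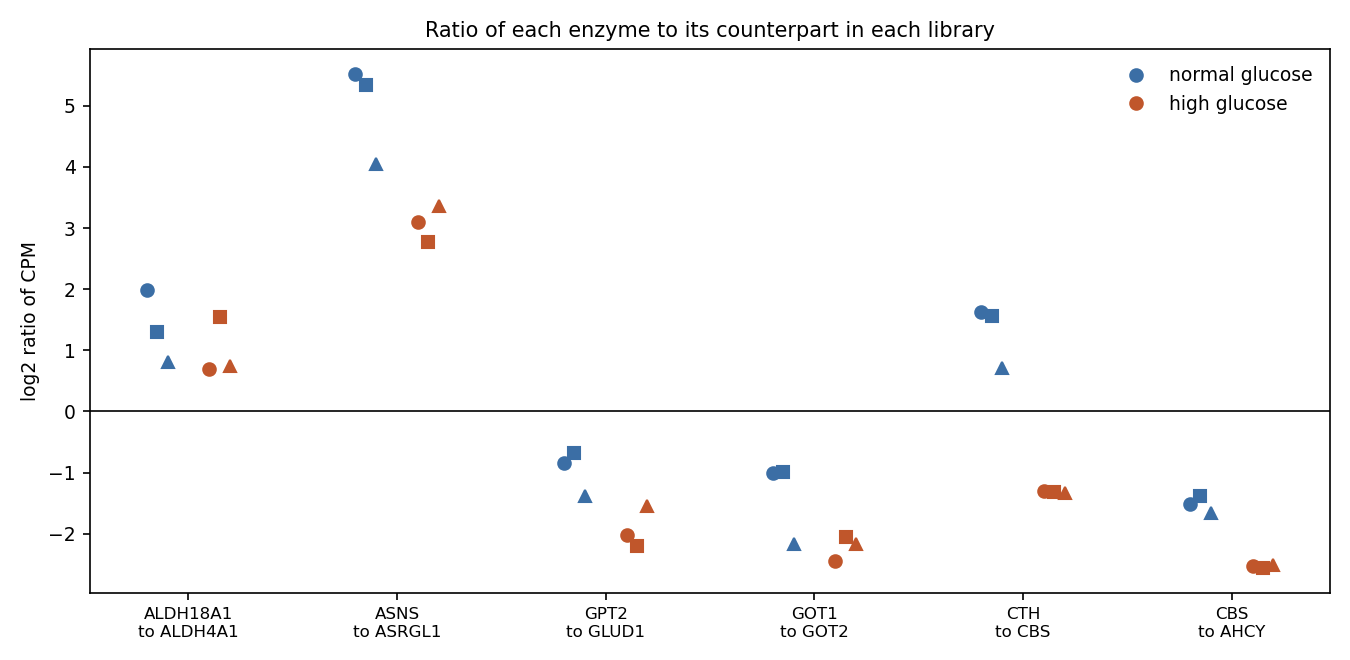
Log2 ratio of the CPM of each enzyme to that of a partner enzyme (vertical axis) in each library, normal glucose in blue and high glucose in orange, with circle, square and triangle for replicates 1, 2 and 3. The groups separate for 4 of the 6 ratios shown, with the largest difference for CTH to CBS, drawn here for the CBS locus without CBSL.

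Outside the 8, the neighbouring enzymes of the same pathways moved in both directions. Of 66 such genes, 58 were tested: 9 were called lower (15.5%) and 8 higher (13.8%), beside 9.86% and 9.75% of all tested loci, and their median log2 change was 0.07. In the asparagine and aspartate list edgeR called 0 of 5 tested genes, with 1 lower at an unadjusted p under 0.05, and DESeq2 called 0. GOT2, the mitochondrial aspartate transaminase, was at 203 ± 37.4 and 175 ± 5.68 CPM (SD, n = 3), with a log2 change of -0.21 and an edgeR adjusted p of 0.346. NIT2, an omega-amidase in a locus with TBC1D23, had 157 ± 23.0 and 124 ± 5.05 CPM, with a log2 change of -0.34 and an edgeR adjusted p of 0.111, or 0.00805 without normal glucose 3.

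Of 8 tested genes of glutamate, glutamine and alanine metabolism, 2 fell (25%) and 1 rose (12.5%), beside 9.86% and 9.75% of all tested loci. PSAT1, the transaminase of serine synthesis, which draws its amino group from glutamate, fell by 2.89. GLUL, which makes glutamine, fell by 0.85 (edgeR adjusted p = 0.0445) and GAD1, a glutamate decarboxylase, rose by 0.51 (edgeR adjusted p = 0.0352). The call of GLUL was lost without any 1 library, and that of GAD1 without any 1 other than normal glucose 3. Over all 15 alternative settings, GLUL lost its call in 11 and GAD1 in 9, so also in some with all 6 libraries. Of 10 tested genes of proline and ornithine metabolism, 1 rose (10%) and 1 fell (10%), near the 9.75% and 9.86% of all tested loci. PYCR3 was the gene that rose. PEPD, which frees proline from dipeptides, fell by 0.59 (edgeR adjusted p = 0.0132). The call of PEPD was lost without any 1 high glucose library (edgeR adjusted p of 0.0531 to 0.0675), and in 4 of 15 settings in all. Proline dehydrogenase, PRODH, was at 0 to 0.862 CPM in all libraries, and OAT, which links ornithine to the same semialdehyde, was at 76.0 ± 18.1 and 79.1 ± 3.08 CPM (SD, n = 3).

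Of 13 tested genes of the arginine list, 4 rose (30.8%) and 2 fell (15.4%), beside 9.75% and 9.86% of all tested loci. Only 1 higher and 1 lower call were left without high glucose 1, 2 or 3. In those fits 2.62% to 3.09% of all tested loci were called lower, and 730 to 819 of 26273 to 26448 loci higher. Without normal glucose 2 and 3 there were 2 and 6 higher calls, beside 1439 of 26321 and 3932 of 26531 loci. ARG2, the mitochondrial arginase, was at 10.5, 11.5 and 12.7 CPM in normal glucose and at 3.58, 2.92 and 2.67 CPM in high glucose, a fall of 1.92 (SE 0.186; edgeR adjusted p = 0.00272). NOS2, a nitric oxide synthase in a locus with LYRM9, rose by 1.34, ODC1, which makes putrescine from ornithine, by 1.20, and SLC25A15, the mitochondrial ornithine carrier, by 0.95. The calls of NOS2 (without high glucose 1 or 2), ODC1 (without high glucose 2 or 3) and SLC25A15 (without normal glucose 2 or high glucose 1 or 3) were lost, with adjusted p of 0.0509 to 0.0821. ASL, which follows ASS1 and shares a locus with CRCP, had 45.8 ± 3.40 and 72.0 ± 19.0 CPM (SD, n = 3), with a log2 change of 0.65 and an edgeR adjusted p of 0.0512.

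Of 11 tested genes of the methionine cycle, which leads into transsulfuration, 2 were called lower (18.2%) and 0 higher. Over all tested loci these shares were 9.86% and 9.75%. Both genes fell by less than CBS and CTH. MTRR, which reactivates methionine synthase, fell by 0.88 (edgeR adjusted p = 0.0143) and AHCY, in a locus with a clone transcript, by 0.36 (edgeR adjusted p = 0.0329). MTRR lost its call without high glucose 3, and AHCY without any 1 library other than normal glucose 3. Over all 15 alternative settings, AHCY lost its call in 7. Of 12 tested genes of cysteine and sulfide metabolism, 2 fell and 2 rose (16.7% each), beside 9.86% and 9.75% of all tested loci. ADO, a thiol dioxygenase, fell by 0.74 and TST, a sulfurtransferase, by 0.85, while ETHE1, the persulfide dioxygenase of mitochondria, rose by 0.68 and CSAD, which leads to taurine, by 0.83. The call of TST was lost without any 1 high glucose library, and those of ETHE1 and CSAD without any 1 library other than normal glucose 3. Over all 15 settings, ETHE1 and CSAD each lost their call in 6.

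Among 15 regulators of the ATF4 arm of the stress response, a list drawn up with their fall in these data known, 9 fell (60%) and 1 rose (6.67%), beside 9.86% and 9.75% of all tested loci, with a median log2 change of -1.06. The lower calls numbered 4 without high glucose 1, 2 or 3, beside 3.09%, 2.62% and 2.73% of all tested loci. They numbered 6 without normal glucose 1, beside 5.33%, and 6 with the replicate block, beside 1233 of 25025 loci. The gene that rose was EIF2AK4, an amino acid sensing kinase (log2 change 0.43, edgeR adjusted p = 0.048). Its call was lost without any 1 library other than normal glucose 3, and with DESeq2. It was also lost with another scaling (RLE), without a filter on low counts and with the replicate block. CEBPG, a C/EBP partner of ATF4, was at 174.5, 190.1 and 94.1 CPM in normal glucose and at 29.4, 29.9 and 29.8 CPM in high glucose. Its libraries followed the order seen for ASNS and CTH, with normal glucose 3 between the rest of its group and the high glucose group. CEBPG fell by 2.36 (SE 0.258; edgeR adjusted p = 0.00315). NUPR1, a stress-induced chromatin protein, fell by 1.06, ATF4 fell by 1.09, and TRIB3, a pseudokinase that restrains ATF4, fell by 3.50.

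Across the 6 libraries, 1000 of 19443 other single-name loci had a Pearson correlation above 0.95 with ASNS in log2 CPM, so a close likeness is common in these data, where all points share the same group difference. The 5 most like ASNS were CNBP, NEDD4, SCMH1, CEBPG and VIP (r of 0.9991 to 0.9997, 6 libraries). VIP, a neuropeptide, was at 2.03, 2.34 and 0.433 CPM in normal glucose and had no count in high glucose. It thus passed the filter through its normal glucose libraries alone. The prior count sets its log2 CPM in high glucose, so its likeness is uncertain. The 5 most like CBS were RNF19B, PCDH17, EXOSC8, MTHFD2 and RALA (r of 0.9987 to 0.9994). MTHFD2, the mitochondrial folate enzyme, was at 150.2, 186.0 and 139.4 CPM in normal glucose and at 43.7, 43.3 and 44.6 CPM in high glucose. The locus most like ASS1 was BBIP1 (r of 0.993), but the ASS1 values rest on few counts.

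The calls of the members differed in how they held when libraries were left out in turn. ASNS, PYCR1, CTH and CBS were called lower in all 6 such fits, GPT2 in 2, GOT1 in 1 and ASS1 in 0. Without normal glucose 1, 2 and 3, members called lower numbered 4, 4 and 6, beside 5.33%, 4.89% and 13.9% of all tested loci. Without high glucose 1, 2 and 3 they numbered 4, 4 and 5, beside 3.09%, 2.62% and 2.73%. Each such fit has fewer libraries to estimate the spread. No member changed sign in these 6 fits: ASNS ranged from -1.81 to -2.19, PYCR1 from -1.74 to -1.98 and CBS from -1.30 to -1.45.

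**Figure D4:**
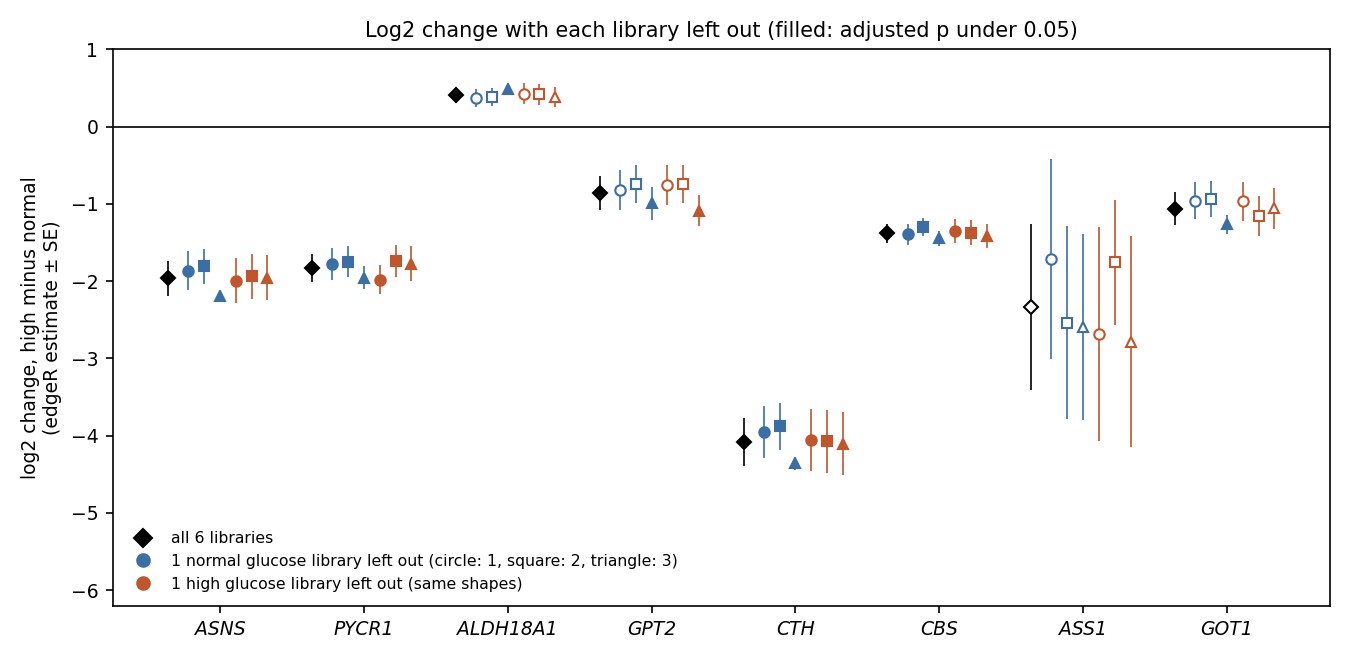
Log2 change of each enzyme (vertical axis; edgeR estimate ± SE) with all 6 libraries (black diamond) and with 1 library left out (blue for a normal glucose library, orange for a high glucose one; circle, square and triangle for replicates 1, 2 and 3); filled points passed an adjusted p of 0.05. ASNS, PYCR1, CTH and CBS stay filled throughout, and ASNS, CTH and CBS fall furthest without normal glucose 3 (blue triangle).

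Markers of cell identity moved with the groups as well. Of 11 retinal pigment epithelium markers, the visual cycle isomerase RPE65 was at 0 to 0.0456 CPM and thus near 0 in all libraries, and RLBP1, a retinaldehyde carrier, was at 0.909 to 4.49 CPM, highest in normal glucose 3. The transcription factors of the lineage were present, MITF at 28.7 to 86.7 CPM and OTX2 at 31.3 to 53.0 CPM. Neither was called by edgeR with all 6 libraries. MITF was lower in every high glucose library (log2 change -0.74; edgeR adjusted p = 0.103) and was called with DESeq2 (DESeq2 adjusted p = 0.0496). OTX2 was called higher only without normal glucose 3 (edgeR adjusted p = 0.0184). The summed level of the list was 790 to 1270 CPM in normal and 2338 to 2476 CPM in high glucose. Most of it, and its rise, came from the keratins KRT8 and KRT18, while BEST1 was called lower. PMEL (3.59 and 2.95 CPM on average) and SERPINF1 (7.08 and 5.67 CPM) were, like MITF, lower in every high glucose library without an edgeR call. Of all tested loci, 20.5% were lower without overlap. RPE65, RLBP1, TYRP1, OTX2 and TJP1 overlapped between the groups. The call of KRT8 was lost without normal glucose 1 or any 1 high glucose library, and that of BEST1 without high glucose 1 or 2; KRT18 was called in all 6 omissions. KRT8 was at 299.5, 259.6 and 621.9 CPM in normal glucose, so library 3 lay toward the high glucose group here too. Of 6 fibroblast markers, COL1A1 was called and fell (log2 change -2.49; edgeR adjusted p = 0.0302), but it was not called when any 1 library other than normal glucose 3 was left out (0.0629 to 0.108), with the replicate block or with limma. Normal glucose 1 stood apart in this list, with COL1A1 at 86.4 CPM against 39.2 and 12.9 CPM in normal glucose 2 and 3, and COL1A2 at 28.7 CPM against 0.862 and 0.866 CPM. The list summed to 61.9 to 165 CPM in normal and 57.2 to 59.5 CPM in high glucose. Most of the high glucose sum came from the locus that PDGFRA shares with FIP1L1, so it may not be of PDGFRA. That locus was at 42.6 to 46.9 CPM in normal and 45.1 to 48.8 CPM in high glucose. Of 4 endothelial markers, KDR fell, with sums of 10.6 to 17.1 and 3.06 to 4.51 CPM, and CDH5 was at 0 to 0.0962 CPM. Of 3 leukocyte markers edgeR called 0 of the 2 tested (1 lower at an unadjusted p under 0.05; DESeq2 called 0), and PTPRC was at 0 to 0.0932 CPM. The list's sum of 343 to 544 CPM came almost wholly from the locus that CD68 shares with EIF4A1, a translation factor. The 4 adipocyte markers, listed because the protocol text speaks of adipose tissue, summed to 0 to 0.186 CPM. The part of these shifts in the values of the 8 enzymes was not tested.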

How the data were processed

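Counts and FPKM values for 6 libraries came from a single table of 60835 loci. The deposited counts are whole numbers without normalization, as the values show. The FPKM columns were made by the authors, named so per the file headers, and show 0.0001 wherever the count is 0. Bowtie 0.12.2 and mm8, a mouse build, are named in the submitters' processing notes; the identifiers are human, and the positions of all 8 members overlap those in GRCh38.p14. Locus coordinates follow the table. The counting tool and its use of strand are not given in the sources used here. Every per-sample column was mapped (0 left over).

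The 25025 loci kept by filterByExpr were tested with edgeR 4.0.16 in R 4.3.3 (TMM scaling, glmQLFit, glmQLFTest, 2-sided, group as the only term; high minus normal glucose), with Benjamini-Hochberg adjustment over all of them. Standard errors were obtained as the absolute log2 change over √F. Log2 CPM for likeness used a prior count of 2. Ratios were tested with scipy 1.17.1; 1 of the 7 is not reported here. The steps were tested on simulated data. Alternatives were DESeq2 1.42.0, limma 3.58.1 on log2 FPKM with pseudocounts of 1 and 0.1, other scalings, no filter, counts divided by 4, a replicate block and the omission of each library. Voom with group weights and the sum of CBS and CBSL (also in the ratio of CTH) were added after seeing the data.

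The members and lists were chosen with earlier results of these data known. Named genes are the 8 members, from each list up to 4 called genes, those of lowest adjusted p (or its most abundant genes, up to 2), the partner enzymes of the ratios and the 5 loci most like ASNS, CBS and ASS1 in log2 CPM; PRODH, OAT, CBSL, EIF2AK4 and the markers named outside this rule were picked after their values were seen.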

Additional observations from a re-analysis of the deposited data

How the results depend on the processing

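The number of called loci, 4906 with all libraries, was 1421 to 7615 when 1 library was left out and 2545 with the replicate block. Called members, 7 with all libraries, numbered 4 to 7 over the omissions. Called genes of all related lists, the ATF4 regulators included, were 27 of 73 tested. They numbered 8 to 36 over the omissions and 16 with the replicate block. With all libraries 18 were lower (24.7%) and 9 higher (12.3%), beside 9.86% and 9.75% of all tested loci. The ATF4 list was drawn up with its fall known. Without it, 9 of 58 were lower and 8 higher. DESeq2, other scalings, limma on FPKM, counts divided by 4 and voom each called 7 members; without a filter 6 were called and with the block 5. No member changed sign under any setting that gave it a value. GPT2 lost its call in 5 of 15 settings, GOT1 in 5 and ALDH18A1 in 7. ASNS, PYCR1 and CTH kept theirs in 15 of 15 and CBS in 16 of 16. ASRGL1, never called, had log2 changes of 0.0077 with library size alone, 0.0047 and 0.0145 with limma on FPKM, 0.171 without normal glucose 3 and 0.0979 without high glucose 3. Over all omissions its range was -0.182 to 0.171. The cause of these differences was not tested. Fits without a library have fewer libraries, and a lost call there need not mean dependence on that library. ASS1 was too low to be tested with counts divided by 4. Summing over several loci per symbol was not run, since each member matched 1 locus. The replicate numbers gave no hint of pairing: same-numbered libraries had correlated deviations of -0.017 to -0.00076, and 0 of 3 normal glucose libraries correlated best with the high glucose library of the same number, and 0 of 3 the other way. Depth limits only ASS1 among the members.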
